A study of Mus musculus with 4 samples.

Results

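The genes described here run the cell's cholesterol economy: they make cholesterol, sense it, bring it out of lysosomes, store it and export it. There were 33 of them among the 32285 genes counted, chosen by name from the pathway. They comprise 18 enzymes of synthesis, 5 genes of sterol sensing (Srebf1, Srebf2, Scap, Insig1 and Insig2), the liver X receptor (LXR) genes Nr1h2 and Nr1h3, 4 genes of efflux or LXR response (Abca1, Abcg1, Apoe and Mylip) and 4 genes of storage and transport inside the cell (Soat1, Npc1, Npc2 and Stard4). The list holds no lipoprotein receptor. Uptake enters it through Mylip, a ubiquitin ligase that removes receptors of the LDL receptor family from the cell surface.

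The cells came from the bone marrow of 6 female mice aged 6 weeks, all of genotype Tppp3CreER LSLTdTomato, in which a tamoxifen-inducible Cre driven by Tppp3 switches on a red reporter. A group of 2 mice received tamoxifen on postnatal days 0 and 3. Another 2 received tamoxifen with rapamycin, an inhibitor of the growth kinase mTOR, on the same days. The last 2, called late rapamycin here, received rapamycin on postnatal day 30, no tamoxifen, and so carried no reporter label. No group was left untreated, and the late rapamycin mice differed from the tamoxifen mice in both drugs. The series text gives isolation at 2 weeks in one place and at 6 weeks in another. The labels list sorted Lin-Sca+Kit+ and Lin-Sca-Kit+ cells and whole marrow together, so a lineage's share of cells reflects the sort. On each of 2 days a pool of 3 mice was run, 1 per treatment, told apart by hashtag antibodies. Mouse numbers in the hashtag table do not match those in the labels. The hashtag table was followed; if the label numbers are hashtag numbers, tamoxifen and tamoxifen+rapamycin are exchanged throughout, and the mice the table calls Ctrl are the late rapamycin mice either way.

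After filtering, 34436 cells remained, between 5495 and 6389 per mouse, with 22346678 to 37062789 unique molecular identifiers (UMIs, one per captured RNA molecule) per mouse. Cells were placed in lineages ("gates") by marker genes, none of which is a cholesterol gene. The gates are groups of cells like the named lineage and were not sorted as such. The hematopoietic stem cell (HSC) gate held 3077 cells, and 13 of its 13 markers were raised at least 2-fold in it. The count was 6 of 8 for megakaryocytes, 5 of 6 for Gata2 precursors and 5 of 6 for basophils and mast cells. HSC markers summed to 2611 CPM (UMIs scaled to a common total) in Gata2 precursors, whose own list summed to 1523. Neutrophil progenitor markers summed to 2971 CPM in basophils and mast cells (own list 2601) and to 6916 in monocytes (own list 3957). The part of other cells in these gates was not tested. Of the kept cells, 6046 fell in no gate, and 126 barcodes occurred in both pools (59 of them among kept cells). The late rapamycin mouse of day 1 stood apart: it gave 1221 neutrophil progenitors and 1390 neutrophils, the most of any mouse, and only 124 B lineage cells, the fewest.

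Sterol synthesis starts from acetyl-CoA, runs through mevalonate and farnesyl diphosphate to squalene and lanosterol, and ends in cholesterol. When membrane cholesterol falls, Scap carries the SREBP transcription factors (from Srebf1 and Srebf2) out of the endoplasmic reticulum to be cut, and they then turn on the synthesis genes. Insig proteins hold Scap back when sterols are plentiful. Oxysterols formed from surplus cholesterol activate LXR, which turns on the export pumps Abca1 and Abcg1, the lipid carrier Apoe and Mylip. In blood formation these arms are known for their link to growth: dividing cells must build membrane, while loss of the export pumps is known to expand stem and progenitor cells in mice. mTOR signalling is known to favour SREBP activity.

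The promoters of these genes share sequence features that the choice of genes did not use. RefSeq windows (GRCm38.p6) from 250 bases before to 50 bases after the start site were found for 27 of the 33 genes, in 38 windows. The CCAAT letters of the NF-Y box, which binds a factor that works beside SREBP, stood in 14 of the 15 synthesis genes with a window. Counted by window, 57.9% of the members' windows held it on either strand, against 37.4% of all 32851 windows. The Sp1 box GGGCGG stood in 71.1% of the members' windows and in 35.7% of all. The core of the sterol regulatory element, TCACNCCAC, was found in 1 member window, that of Hmgcs1, and in 1.24% of all windows. Neither the LDL receptor form of that element (0.0913% of all windows) nor the LXR repeat (0.0152%) was found in a member window. The E-box CACGTG stood in 18.4% of the members' windows and in 7.15% of all. These are matches of letters, searched on both strands, and not measured binding. The 250 bases before the start of 4 genes with a result in the levels are given here, read 5′ to 3′ on the gene's strand. They are Hmgcs1 (first step toward mevalonate; chr13:119690101-119690350, plus strand), Ebp (a late isomerase; chrX:8193513-8193762, minus strand), Mylip (chr13:45389492-45389741, plus strand) and Abca1 (chr4:53159896-53160145, minus strand). Capitals mark the sterol element core, NF-Y boxes (here as ATTGG on the printed strand) and the E-box.
Hmgcs1: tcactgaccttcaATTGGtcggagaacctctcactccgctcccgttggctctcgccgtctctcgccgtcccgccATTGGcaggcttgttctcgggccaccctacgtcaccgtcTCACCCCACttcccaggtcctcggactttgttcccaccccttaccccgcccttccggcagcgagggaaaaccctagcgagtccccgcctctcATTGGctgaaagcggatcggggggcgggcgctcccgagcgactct
Ebp: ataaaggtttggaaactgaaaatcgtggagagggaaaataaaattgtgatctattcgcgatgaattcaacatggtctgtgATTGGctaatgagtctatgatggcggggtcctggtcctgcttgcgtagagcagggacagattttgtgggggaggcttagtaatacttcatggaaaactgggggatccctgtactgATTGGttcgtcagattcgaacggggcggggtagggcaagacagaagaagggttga
Mylip: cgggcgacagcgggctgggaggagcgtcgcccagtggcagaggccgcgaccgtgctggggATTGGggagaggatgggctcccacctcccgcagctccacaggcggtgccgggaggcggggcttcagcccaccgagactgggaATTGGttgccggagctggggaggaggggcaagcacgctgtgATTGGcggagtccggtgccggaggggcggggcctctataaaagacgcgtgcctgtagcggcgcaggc
Abca1: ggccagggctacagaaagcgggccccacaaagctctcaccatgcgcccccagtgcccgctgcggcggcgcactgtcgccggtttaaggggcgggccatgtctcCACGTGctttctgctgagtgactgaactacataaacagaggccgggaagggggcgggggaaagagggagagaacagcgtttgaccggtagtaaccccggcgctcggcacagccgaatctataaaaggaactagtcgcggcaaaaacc
Hmgcs1 carries its sterol element core at -137 from the RefSeq start site between NF-Y boxes at -176 and -45, with another at -237. Bases just after that start site were not found in an annotated transcript of Hmgcs1, whose annotated gene starts further on, at 119690379. For Ebp, Mylip and Abca1 such bases were found. Ebp holds NF-Y boxes at -170 and -55 and no sterol core. The LXR target Mylip carries 3 NF-Y boxes (-190, -108 and -67), as many as the Hmgcs1 stretch. The stretch of Abca1 has none and holds an E-box at -147.

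The first comparison asked whether rapamycin given beside tamoxifen at birth left a difference in these genes at 6 weeks. UMIs were summed per mouse and gate and tested with edgeR's quasi-likelihood test, with the processing day in the model; a gene passed when its Benjamini-Hochberg adjusted p over all genes of the gate was under 0.05. In the HSC gate 30 of the 33 genes had enough UMIs to be tested (Mvd, Tm7sf2 and Nr1h3 did not), and 0 passed in the comparison of tamoxifen+rapamycin with tamoxifen. The background there was 0.0909% of 11006 genes tested (10 genes passed, and 645 had an unadjusted p under 0.05). Before adjustment 5 of the 30 had a p under 0.05, and DESeq2 also called 0. Values of single genes per mouse in the treatment comparisons are CPM after TMM scaling (UMIs scaled to a common library total), day 1 before day 2. Summed levels of marker lists and of the synthesis enzymes are plain CPM instead, as are values marked plain.

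The smallest p-values of the HSC gate belonged to the 4 LXR targets and Srebf2, in the order Abca1, Apoe, Mylip, Abcg1 and Srebf2. Abca1, which loads cholesterol onto apolipoprotein A-I (chromosome 4, 53030787 to 53159895, minus strand), stood at 25 and 25.2 CPM in the tamoxifen mice. It reached 49.6 and 54.8 CPM in the tamoxifen+rapamycin mice and 51.0 and 45.7 CPM in the late rapamycin mice. Both rapamycin groups lay above both tamoxifen mice, and they overlapped each other. The fitted difference was 1.07 on the log2 scale (SE 0.19, 2.10-fold) for tamoxifen+rapamycin against tamoxifen, with an edgeR adjusted p of 0.0682. For late rapamycin against tamoxifen it was 0.93 (SE 0.19, 1.90-fold), adjusted p 0.0788. Neither passed. The values rest on 37 to 108 UMIs per mouse, and the 2 comparisons share the tamoxifen mice. With no filter on low counts both pass, at edgeR adjusted p-values of 0.0003 and 0.0021. Without the tamoxifen mouse of day 1 they pass at 0.0076 and 0.0332, and without the late rapamycin mouse of day 2 at 0.0002 and 0.0222. The first also passes without the tamoxifen mouse of day 2 (0.0475) or the late rapamycin mouse of day 1 (0.0001), and the second with a stricter gate (0.0199). DESeq2 gave an adjusted p of 1.00 for the first.

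Apoe in the HSC gate was 98.1 and 115 CPM under tamoxifen, 180 and 150 under tamoxifen+rapamycin, and 89.4 and 121 under late rapamycin. The tamoxifen+rapamycin mice were the highest, and the other 2 groups overlapped. The difference from tamoxifen was 0.60 (edgeR adjusted p 0.300) and that from late rapamycin 0.60 (adjusted p 0.113). Mylip was also highest under tamoxifen+rapamycin, at 63.6 and 56.0, then 88.6 and 80.2, then 67.9 and 72.4 CPM. Its difference between tamoxifen+rapamycin and tamoxifen was 0.50 with an edgeR adjusted p of 0.507. Abcg1, the pump that delivers cholesterol to larger lipoproteins, gave 84.6 and 69.0, 94.4 and 104, and 93.9 and 93.6 CPM. Its differences from tamoxifen were 0.40 (edgeR adjusted p 0.783) and 0.31 (adjusted p 0.543). Srebf2, the SREBP gene most tied to sterol synthesis, was 144 and 136 CPM under tamoxifen, 167 and 177 under tamoxifen+rapamycin and 137 and 132 under late rapamycin. It did not pass either, with 0.31 (edgeR adjusted p 0.783) against tamoxifen and 0.37 (adjusted p 0.184) against late rapamycin. In each of these 5 genes both tamoxifen+rapamycin mice lay above both tamoxifen mice. The genes were picked for the smallest p-values of this comparison, so such a separation is no further evidence. Macrophages are rich in LXR targets, and the summed level of 9 macrophage markers in the HSC gate was 15.9 to 32.3 plain CPM over the mice. It was 32.3 and 18.9 CPM under tamoxifen and 19.8 and 19.6 CPM under tamoxifen+rapamycin. Megakaryocyte markers there summed to 49.2 and 50.2 CPM under tamoxifen, 22.7 and 45.8 under tamoxifen+rapamycin and 33.6 and 42.3 under late rapamycin. B lineage markers summed to 23.6 and 30.1, 37.8 and 34.7, and 40.6 and 33.8 CPM. Every mouse given rapamycin lay below both tamoxifen mice for megakaryocyte markers and above both for B lineage markers. The part of these lists in the differences was not tested.

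The enzymes of synthesis did not follow in the HSC gate. Of 16 tested, 10 lay above 0 in tamoxifen+rapamycin against tamoxifen, with a median of 0.06. Sqle, which oxidises squalene, was 37.2 and 19.5 CPM under tamoxifen, 25.7 and 24.4 under tamoxifen+rapamycin, and 34.9 and 33.4 under late rapamycin. Acat2, which joins acetyl-CoA units at the head of the pathway, was 19.0 and 16.5, 12.4 and 18.3, and 26.8 and 22.4 CPM. Neither gene separated the tamoxifen groups. Insig2 was 23.7 and 20, 32.4 and 26.4, and 16.1 and 23.3 CPM. Npc1, which moves cholesterol out of lysosomes, was 29.8 and 36.9, 49.6 and 41.6, and 20.6 and 34.7 CPM in the HSC gate. Its difference between tamoxifen+rapamycin and late rapamycin, 0.62, had an edgeR adjusted p of 0.278. In late rapamycin against tamoxifen 0 of 30 passed, beside a background of 0.236% (26 genes). In tamoxifen+rapamycin against late rapamycin 0 of 30 passed, beside 0.363% (40 genes). Unadjusted p-values under 0.05 came to 2 and 3 members in these comparisons, and to 997 and 1383 of all genes. DESeq2 called 0 in both.

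**Figure D1:**
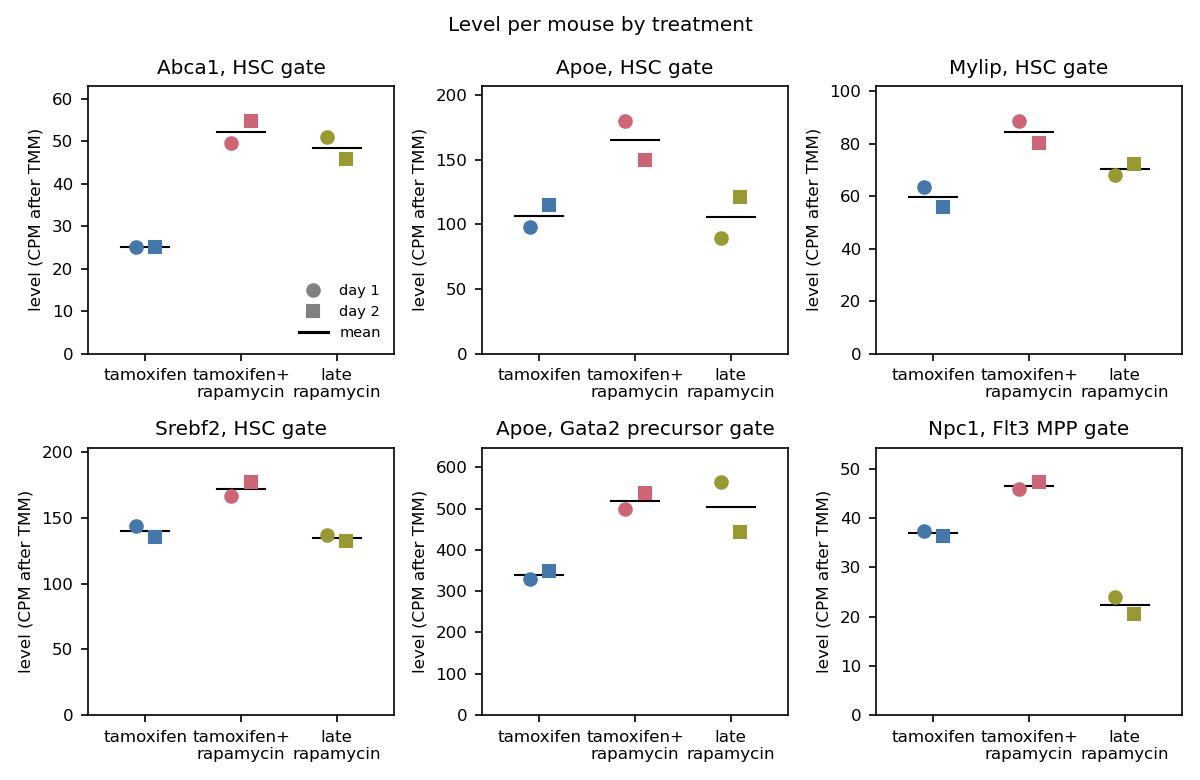
Level per mouse (y axis, CPM after TMM scaling) by treatment for Abca1, Apoe, Mylip and Srebf2 in the HSC gate, Apoe in the Gata2 precursor gate and Npc1 in the Flt3 MPP gate; circles are day 1, squares day 2 and bars the mean of 2 mice. Abca1 lies at 25 and 25.2 CPM under tamoxifen and between 45.7 and 54.8 CPM in the other 4 mice, and Npc1 is lowest under late rapamycin (24.0 and 20.6 CPM).

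Beyond the HSC gate, 3 treatment differences passed, for 2 genes, out of 285 pairs of member and gate in each of 3 comparisons. Apoe rose in the Gata2 precursor gate, which holds cells on the way to the erythroid, megakaryocyte and mast cell branches. Apoe (chromosome 7, 19696109 to 19699188, minus strand) encodes the main lipid carrier that LXR turns on in macrophages. It was 330 and 350 CPM under tamoxifen, 499 and 537 under tamoxifen+rapamycin and 563 and 442 under late rapamycin. All 4 mice given rapamycin lay above both tamoxifen mice. Tamoxifen+rapamycin exceeded tamoxifen by 0.61 (SE 0.10, 1.52-fold; edgeR adjusted p 0.0129), and late rapamycin exceeded it by 0.54 (SE 0.11, 1.46-fold; adjusted p 0.0128). Here 1 of 28 members passed in each, beside backgrounds of 0.142% and 0.923% of 9861 genes. Over all 10 gates the backgrounds were 0.136% and 0.358%. Several settings end these calls: DESeq2 (adjusted p 0.656 and 0.430), the fit without the day (0.0580 and 0.0549) and leaving out the tamoxifen mouse of day 1 (0.0616 and 0.0625) each end both, and a stricter gate does too (0.624 and 0.700). Without the tamoxifen+rapamycin mouse of day 2 the first has an adjusted p of 0.318, and without the late rapamycin mouse of day 1 the second is 0.33 (adjusted p 0.130). Erythroid markers in this gate were also higher in all 4 mice given rapamycin: their summed level was 359 and 411 CPM under tamoxifen, 448 and 580 under tamoxifen+rapamycin and 498 and 536 under late rapamycin, over 12 markers. In the late rapamycin mice this sum was higher on day 2 and Apoe on day 1. Basophil and mast cell markers summed to 56.5 and 54.6 CPM under tamoxifen, 63.0 and 36.6 under tamoxifen+rapamycin and 101 and 44.7 under late rapamycin. Megakaryocyte markers summed to 153 and 151, 157 and 123, and 148 and 99.6 CPM in the same order. The part of these lists in the result was not tested. Apoe itself was at 86.8 ± 27.7 plain CPM (SD, n = 6) in the erythroid gate and at 448 ± 95.2 in the Gata2 precursor gate, with no overlap. The macrophage markers in the Gata2 precursor gate summed to 24.3 and 10.4 CPM under tamoxifen and 22.9 and 16.8 under tamoxifen+rapamycin. Under late rapamycin they summed to 8.07 and 13.3 CPM. The tamoxifen mice overlapped each rapamycin group, and the part of these markers in the result was not tested either.

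The other pass was Npc1 in the Flt3 MPP gate, the multipotent progenitors with lymphoid and myeloid potential. Npc1 was 37.3 and 36.4 CPM under tamoxifen, 45.9 and 47.2 under tamoxifen+rapamycin and 24.0 and 20.6 under late rapamycin. The 3 groups did not overlap, with late rapamycin lowest. Tamoxifen+rapamycin exceeded late rapamycin by 1.06 (SE 0.15, 2.08-fold; edgeR adjusted p 0.0223). Beside 1 of 32 members, 0.296% of 11492 genes passed there, and 0.289% over all gates. Late rapamycin against tamoxifen gave -0.72 (adjusted p 0.119) and tamoxifen+rapamycin against tamoxifen 0.34 (adjusted p 0.822), so neither rapamycin group was shown to differ from tamoxifen. Plasmacytoid dendritic cells had high Npc1, and their markers summed in this gate to 678 and 632 plain CPM under tamoxifen, 709 and 701 under tamoxifen+rapamycin and 703 and 535 under late rapamycin. The sum of 9 B lineage markers in this gate had the same order as Npc1, with no overlap: 56.3 and 62.4 CPM under tamoxifen, 84.4 and 111 under tamoxifen+rapamycin and 54.5 and 41.9 under late rapamycin. Against the HSC gate Npc1 itself was lower in B lineage cells (-0.47, SE 0.19) and did not pass in the Flt3 MPP gate (0.11, SE 0.16). The part of either list in the result was not tested. The pass is lost with DESeq2 (adjusted p 0.225), without the day in the fit (0.0533) and without either tamoxifen+rapamycin mouse (0.129 and 0.199).

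Across gates, small differences leaned one way. In tamoxifen+rapamycin against tamoxifen the median over the tested members was above 0 in 10 of 10 gates, from 0.01 in the basophil and mast gate to 0.37 in the neutrophil gate. Over the 285 pairs, 44.6% were higher on both days and 15.4% lower on both, against 27.1% and 27.4% of all gene and gate pairs. Late rapamycin against tamoxifen, which shares the tamoxifen mice, gave medians from 0.00 to 0.49 and 37.2% higher and 17.5% lower on both days, against 26.3% and 26.9% of all. The comparison without tamoxifen mice, tamoxifen+rapamycin against late rapamycin, had medians from -0.12 to 0.17, with 5 of 10 above 0. The members share regulators, and each mouse contributes to all gates, so these pairs are not independent and have no test.

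**Figure D2:**
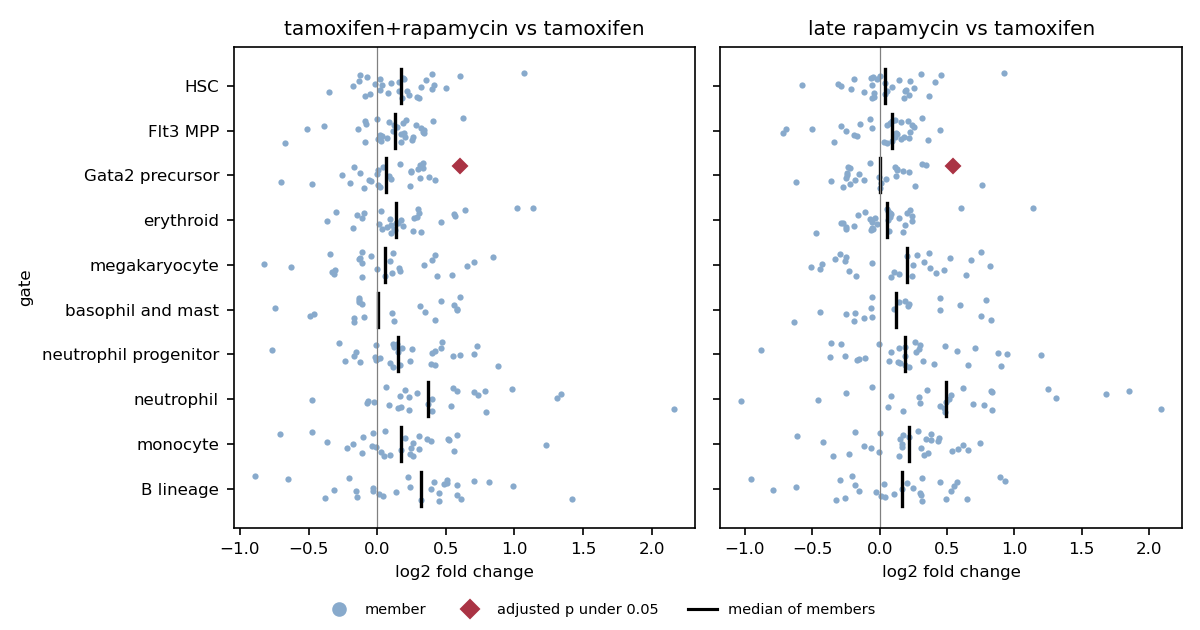
Log2 fold change (x axis) of every tested member in the 10 gates (y axis) for tamoxifen+rapamycin and late rapamycin, each against the same tamoxifen mice; points are genes, red diamonds passed the adjusted threshold of 0.05 and black bars are the gate's median. The medians lie at or right of 0 in all 10 gates, reaching 0.37 and 0.49 in the neutrophil gate, and 1 diamond, Apoe in the Gata2 precursor gate, appears in each panel.

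The synthesis enzymes took part in this lean in the neutrophil gate, where 14 of 14 tested enzymes lay above 0 for tamoxifen+rapamycin against tamoxifen, and 13 of 14 for late rapamycin. Without the late rapamycin mouse of day 1, 9 of 14 lie above 0 in the second, with a median of 0.23 in place of 0.80, and the neutrophil median over all members is 0.25 in place of 0.49. Not every gate showed it: 2 of 7 enzymes lay above 0 in the basophil and mast gate for tamoxifen+rapamycin (median -0.13), and 9 of 18 in the erythroid gate for late rapamycin. Idi1, the isomerase that makes dimethylallyl diphosphate, was 9.88 and 11 CPM under tamoxifen, 33.5 and 22.7 under tamoxifen+rapamycin and 56.8 and 18.5 under late rapamycin. Sqle was 2.47 and 1.64, 10.6 and 7.97, and 14.1 and 4.52 CPM there. Fdps, farnesyl diphosphate synthase, was 31.3 and 21.9, 44.1 and 42.9, and 204 and 32.5 CPM. All 3 enzymes were higher in all 4 mice given rapamycin than in both tamoxifen mice, and the late rapamycin mouse of day 1 was the highest in each. Leaving it out takes the late rapamycin difference from 1.68 to 0.95 for Idi1, from 2.09 to 1.36 for Sqle and from 1.85 to 0.43 for Fdps. These 3 of the 14 enzymes tested were named with their values known, so their separation is no further evidence. Both comparisons share the tamoxifen mice, and the share of all genes that separate this way is not given. With edgeR 0 genes of any kind passed in the neutrophil gate in a treatment comparison. At an unadjusted edgeR p under 0.05 there were 4 of 27 members and 162 of 8212 genes in tamoxifen+rapamycin against tamoxifen. In late rapamycin against tamoxifen there were 8 of 27 members and 408 of 8212 genes. In the erythroid gate Fdps was 56.2 and 52.9 CPM under tamoxifen, 85.2 and 75.1 under tamoxifen+rapamycin and 44.8 and 68.0 under late rapamycin, with 0.56 for the first difference (edgeR adjusted p 0.218). In the B lineage gate Idi1 was 25.9 and 12.8, 44.3 and 30.7, and 23.2 and 24.0 CPM (0.99 for tamoxifen+rapamycin against tamoxifen, edgeR adjusted p 0.162). Sqle there was 11 and 4.26, 26.6 and 13.4, and 23.2 and 6.16 CPM. These B lineage values follow the day as well as the treatment, day 1 being higher in 5 of the 6 pairs of values.

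The summed level of the 18 synthesis enzymes was compared by day in plain CPM. It was higher on both days in tamoxifen+rapamycin than in tamoxifen in 8 of 10 gates and lower on both in 0. For late rapamycin against tamoxifen it was higher in 7 and lower in 0. For tamoxifen+rapamycin against late rapamycin it was higher in 4 and lower in 2. Some of the differences counted were close to 0 on the log2 scale. In B lineage cells late rapamycin exceeded tamoxifen by 0.004 on day 1. In Gata2 precursors tamoxifen+rapamycin exceeded late rapamycin by 0.0013 on day 2. The gates share the same mice, so these counts have no test. The late rapamycin mouse of day 1 had a sum of 619 plain CPM in neutrophils, where the other 5 mice had 231 to 398. In neutrophil progenitors it had 591, against 359 to 492. Left out one at a time, the late rapamycin mice changed the counts of calls. Without the mouse of day 1, 12 member and gate pairs pass for tamoxifen+rapamycin against tamoxifen, among 1.81% of all pairs, and 5 pass for late rapamycin against tamoxifen, among 1.43%. Without the other late rapamycin mouse, 13, 34 and 26 pass in the 3 comparisons, among 1.87% to 8.50% of all pairs.

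The next comparison was between lineages. Sums per mouse from 10 gates were fitted together with the mouse as a block, and each gate was compared with the HSC gate; Nr1h3 was too low to test (0 to 57 UMIs per gate). Of 288 tests of member and gate, 144 (50%) passed. Over all genes the share that passed ran from 21.8% in Gata2 precursors to 82.9% in neutrophils. The choice of scaling moves every fold in a gate together: the shift between TMM and plain UMI totals was 1.22 in the neutrophil gate, 0.42 in neutrophil progenitors, 0.41 in erythroid cells, 0.34 in monocytes and at most 0.23 elsewhere, on the log2 scale. A gene is therefore called higher or lower here only where both scalings agree and both pass. Levels between gates are plain CPM, given as lowest, median and highest of the 6 mice.

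Srebf2 and Insig1 were higher in the HSC gate than in most other tested gates. Srebf2 was lower than in the HSC gate in 8 of 9 other gates. It ran 132, 139 and 176 CPM in HSCs, 93.3, 111 and 124 in the Flt3 MPP gate, 29.4, 32.5 and 37.7 in erythroid cells and 25.5, 32.2 and 32.8 in neutrophil progenitors. The HSC and erythroid ranges lie far apart, with a difference of -1.75 (SE 0.09; edgeR adjusted p 1.1e-26). Insig1, both a brake on SREBP and its target, was also lower in 8 of 9 gates, down to 7.48, 8.32 and 11.1 CPM in erythroid cells from 21.6, 27.5 and 35.0 in HSCs. Insig2 passed both scalings in 0 of 9. Scap was lower in 3 gates, furthest in neutrophils, where it ran 4.48, 7.94 and 11.2 CPM against 32.3, 40.3 and 48.6 in HSCs. Srebf1, whose products lean to fatty acid genes, was higher in erythroid cells (34.2, 35.1 and 47.5 CPM against 19.5, 30.3 and 33.6) and lower in 3 gates. The LXR gene Nr1h2 was nearly flat, at 31.8, 36.8 and 42.8 CPM in HSCs, and passed only in the B lineage, where it was higher (0.51, SE 0.13).

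The export pumps were lower in erythroid cells, megakaryocytes, monocytes and both neutrophil gates. Abcg1 was lower in 7 of 9 gates: it ran 68.3, 93.1 and 103 CPM in HSCs and 1.68, 2.79 and 4.06 in erythroid cells (-4.61, SE 0.18; edgeR adjusted p 2.7e-32). Abca1 was lower in 5 gates, from 24.9, 47.4 and 54.4 CPM in HSCs to 0, 0.97 and 1.38 in neutrophils (-4.07 with TMM, -5.30 with plain totals). No mouse's neutrophils reached the level of any mouse's HSCs for either pump. The Flt3 MPP gate kept Abca1 at 28.5, 40.2 and 53.1 CPM and Abcg1 at 57.3, 73.5 and 85.0, neither of which passed against HSCs. Mylip was lower in 4 gates and higher in B lineage cells, with 129, 161 and 216 CPM against 55.4, 69.7 and 87.9 in HSCs (1.46, SE 0.13). Every mouse's B lineage cells exceeded every mouse's HSCs.

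Apoe separated the progenitor gates. It is itself among the 10 leading genes of the Gata2 precursor gate, although no marker rule used it. It ran 88.3, 118 and 179 CPM in HSCs, 327, 465 and 553 in Gata2 precursors, 346, 486 and 704 in basophils and mast cells, and 178, 324 and 359 in megakaryocytes. These 3 gates passed as higher, with 1.90 (SE 0.22), 2.18 (SE 0.23) and 1.38 (SE 0.23). It was lower in the Flt3 MPP gate, at 7.43, 16.5 and 32.5 CPM (-2.65, SE 0.26; edgeR adjusted p 8.8e-13), and in neutrophil progenitors, neutrophils and B lineage cells. Among the early progenitors, every Gata2 precursor value lay above every Flt3 MPP value. In B lineage cells, not known for Apoe, the level was 0, 8.79 and 20.4 CPM. In monocytes Apoe varied more between mice, from 45.3 to 242 CPM, and the scalings disagreed on whether it passed.

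Soat1 and Npc2 were high in monocytes. Soat1, which esterifies cholesterol for storage, ran 154, 186 and 232 CPM in monocytes and 92.7, 104 and 127 in neutrophils, against 29.0, 46.9 and 51.2 in HSCs. In erythroid cells it was 0.77, 0.90 and 1.46 CPM, a difference of -5.11 (SE 0.17, edgeR adjusted p 1.1e-35) with TMM and -5.51 with plain totals, on 37 UMIs. It was higher in 3 gates and lower in the other 6. Npc2, the soluble lysosomal carrier that hands cholesterol to Npc1, ran 410, 524 and 572 CPM in monocytes against 108, 111 and 149 in HSCs (2.45, SE 0.11), and was higher in 5 gates and lower in megakaryocytes. Npc1 was higher in 0 of the 9 gates and lower in 5. Stard4, a cytosolic sterol carrier, was lower in 6 gates and higher in megakaryocytes (57.1, 61.5 and 84.4 CPM against 39.7, 42.6 and 52.0).

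**Figure D3:**
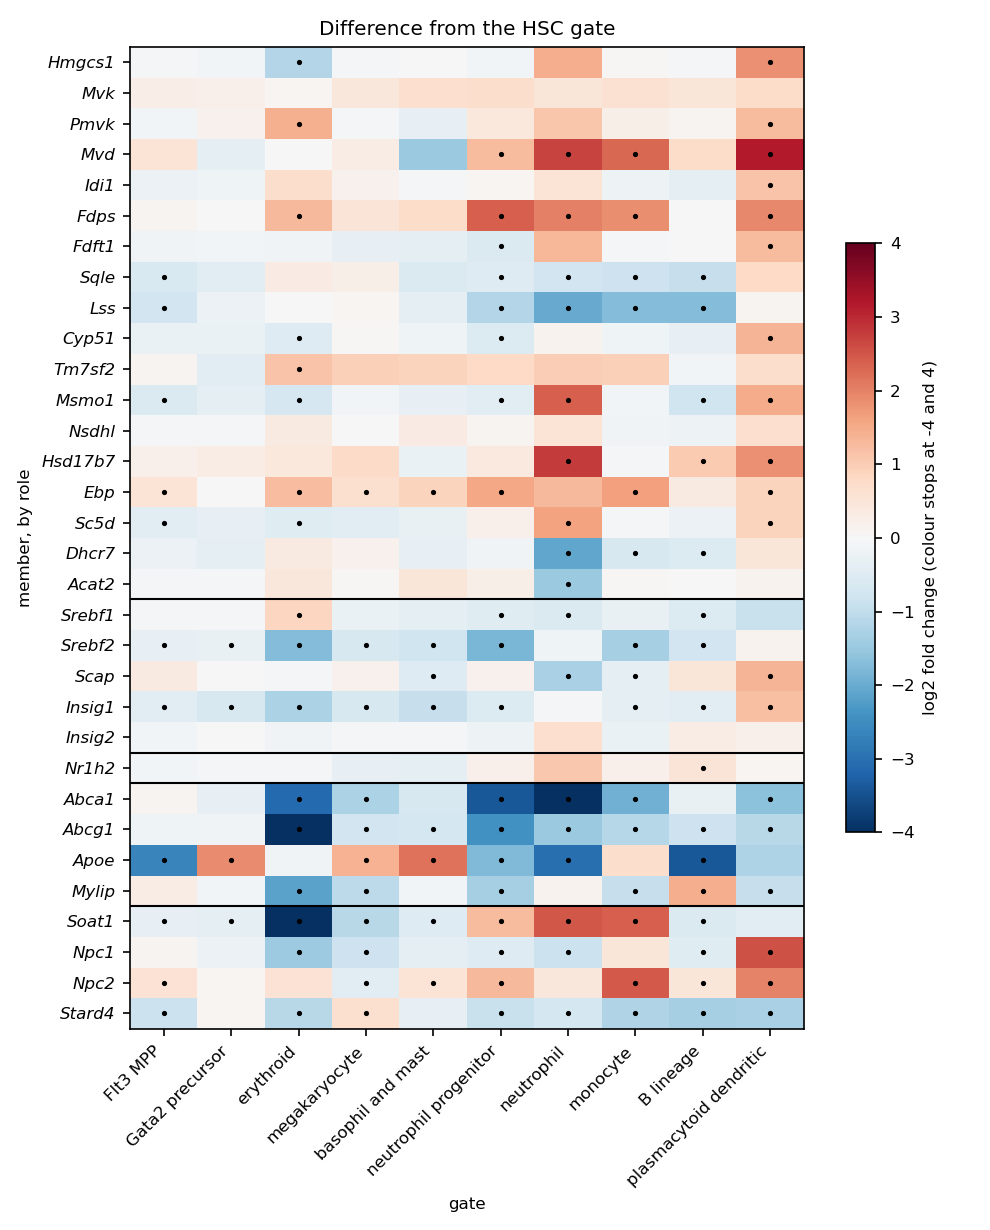
Log2 fold change against the HSC gate (colour, red higher, blue lower, limited to -4 and 4) for 32 members (rows, grouped by role) in 9 gates and the plasmacytoid dendritic gate (columns); dots mark differences that passed with both scalings. The efflux genes Abca1 and Abcg1 are blue in erythroid cells and neutrophils, Soat1 is -5.11 in erythroid cells, and the plasmacytoid dendritic column is red for most enzymes.

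The synthesis enzymes did not move as a block between lineages. Their summed level was 379 ± 44.8 plain CPM in HSCs (SD, n = 6), 327 ± 23.4 in Flt3 MPPs, 338 ± 10.7 in Gata2 precursors, 385 ± 43.3 in erythroid cells, 396 ± 35.6 in megakaryocytes, 377 ± 36.4 in basophils and mast cells, 437 ± 88.9 in neutrophil progenitors, 354 ± 142 in neutrophils, 416 ± 48.9 in monocytes and 285 ± 51.3 in B lineage cells. With plain totals each gate's range over the mice overlapped that of the HSC gate, while single enzymes went opposite ways. The overlap was not examined with TMM scaling, which places neutrophil folds 1.22 higher on the log2 scale. With TMM the neutrophil median over all tested members was 0.47, against -0.18 over all genes. Ebp was higher in 6 gates and lower in 0, reaching 62.7, 77.0 and 99.2 CPM in monocytes against 27.4, 31.6 and 34.3 in HSCs (1.63, SE 0.12). Fdps, the branch point to sterols and to isoprenoids, was higher in 4, with 102, 120 and 243 CPM in neutrophil progenitors against 26.2, 35.1 and 46.3 (2.39, SE 0.23). Its highest value was the late rapamycin mouse of day 1, and the other 5 mice lay between 102 and 159 CPM. Mvd was higher in 3 gates, though from 1.35, 2.68 and 4.42 CPM in HSCs.

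Other enzymes were lower away from the HSC. Lss, which closes the ring to make lanosterol, and Sqle before it were each lower in 5 gates and higher in 0. Lss ran 5.30, 9.0 and 16.2 CPM in HSCs and 0, 1.67 and 4.34 in B lineage cells (-1.74, SE 0.39). Hmgcs1 was lower in erythroid cells, at 9.84, 10.9 and 14.1 CPM against 29.2, 32.9 and 43.3 (-1.17, SE 0.14), and changed in no other gate under both scalings. In those same erythroid cells Pmvk (28.1, 39.6 and 42.5 CPM against 12.3, 19.4 and 23.0), Fdps, Ebp and Tm7sf2 were higher, and Cyp51, Msmo1 and Sc5d were lower. In neutrophils Msmo1 was higher instead: it ran 44.2, 63.4 and 75.7 CPM against 21.6, 25.1 and 38.4 in HSCs (2.39 with TMM, 1.20 with plain totals), and Hsd17b7 10.5, 14.4 and 19.5 against 1.89, 5.17 and 6.06. Sc5d was also higher there, while Dhcr7, the last step to cholesterol, ran 0.86, 1.38 and 3.06 CPM against 13.2, 15.8 and 21.7 (-2.07 with TMM, -3.28 with plain totals). Mvk, Idi1 and Nsdhl passed both scalings in 0 of 9 gates, and Fdft1 and Acat2 were lower in 1 each.

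Read by gate, the share of members that passed was above the background in the Flt3 MPP and neutrophil gates and below it in the other 7. In the Flt3 MPP gate 13 of 32 passed (background 35.2%), in Gata2 precursors 4 (21.8%), in erythroid cells 22 (82.2%), in megakaryocytes 11 (43.4%) and in basophils and mast cells 8 (38.1%). In neutrophil progenitors 22 passed (75.5%), in neutrophils 27 (82.9%), in monocytes 19 (70.2%) and in B lineage cells 18 (68%). With both scalings required, the counts higher and lower were 2 and 9, 1 and 3, 5 and 12, 3 and 8, 3 and 5, 5 and 14, 6 and 11, 5 and 10, and 4 and 12 in the same order. Over all genes the shares called higher and lower by both scalings were 12.8% and 14.7% in Flt3 MPPs, 8.48% and 12.5% in Gata2 precursors, 28.3% and 42.6% in erythroid cells, 18% and 20.3% in megakaryocytes and 14.7% and 17.5% in basophils and mast cells. They were 24.5% and 36.4% in neutrophil progenitors, 16.6% and 45.1% in neutrophils, 25.2% and 31% in monocytes and 25.5% and 33% in B lineage cells. Asking for plain totals as well removed only higher calls among the members: with TMM alone the higher ones came to 4, 1, 10, 3, 3, 8, 16, 9 and 6, and the lower ones were as many as before.

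The plasmacytoid dendritic gate, antiviral cells that secrete interferon, stood apart. It held only 239 cells, 22 to 65 per mouse, and was fitted after its values had been seen, with a smaller minimum of 20 cells per mouse. There 19 of 32 members passed (background 33.9%), 15 higher and 4 lower under both scalings (14% and 19.6% of all genes). The higher ones include 11 of the 18 synthesis enzymes, with 0 lower, and the lower ones are Abca1, Abcg1, Mylip and Stard4. The median over members was 0.77, against -0.20 over all genes. Hmgcs1 ran 46.1, 137 and 188 CPM there against 29.2, 32.9 and 43.3 in HSCs (1.83, SE 0.23; edgeR adjusted p 4.9e-10), and no mouse's value fell within the HSC range. Npc1, higher in no other gate, ran 125, 210 and 239 CPM against 20.3, 35.6 and 49.1 (2.56, SE 0.23; adjusted p 3.3e-15). Scap ran 56.3, 86.8 and 219 CPM (1.36, SE 0.21) and Insig1 16.8, 73.7 and 101 (1.21, SE 0.28). Srebf2 itself, at 92.2, 158 and 197 CPM, did not pass (0.14, edgeR adjusted p 0.55). Counts were low: Hmgcs1 had 74 UMIs over the 6 mice and Mvd 15.

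The synthesis sum in plasmacytoid dendritic cells was 888 ± 283 CPM (SD, n = 6). By mouse it was 709 and 484 CPM under tamoxifen, 971 and 1220 under tamoxifen+rapamycin and 780 and 1162 under late rapamycin. The 4 mice given rapamycin lay above both tamoxifen mice; no treatment test was made in this gate. With plain totals, the sum in 5 of the 6 mice exceeded that of every other gate and mouse, where the highest was 619. TMM scaling places neutrophil folds against the HSC gate 1.22 higher on the log2 scale. It leaves those of plasmacytoid dendritic cells nearly unchanged (-0.004). The sums were not ranked with TMM scaling, so this order holds for plain totals only.

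**Figure D4:**
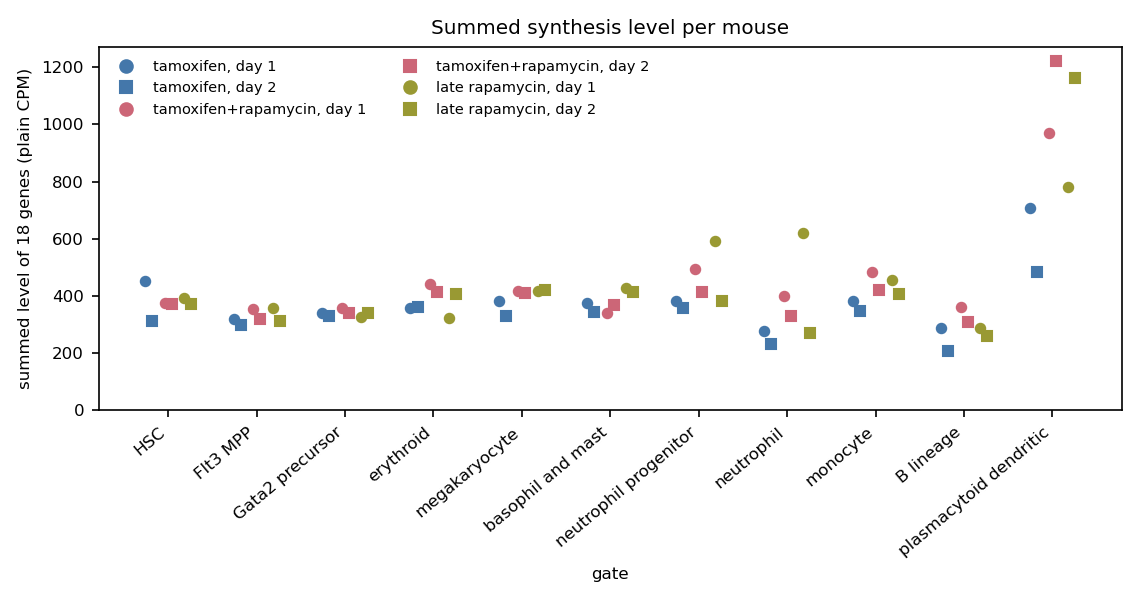
Summed level of the 18 synthesis enzymes per mouse (y axis, plain CPM, starting at 0) in the 10 tested gates and the plasmacytoid dendritic gate (x axis), coloured by treatment, circles day 1 and squares day 2. Most gates lie between 206 and 492 CPM, the late rapamycin mouse of day 1 reaches 619 in neutrophils, and plasmacytoid dendritic cells span 484 to 1220.

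Across the 60 sums of mouse and gate, the genes whose level went most closely with the synthesis sum, out of 12049 compared, were Ndufv3 (Pearson r 0.865), Gapdh (0.862), Aprt (0.862), Txn1 (0.861) and Rab5if (0.856). The members themselves were left out of this ranking, so it could not return them. None of the genes named is another sterol gene. The sums share mice, gates and depth, so this is a description.

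Dividing cells were compared with the rest within 1 gate, the Flt3 MPPs, because membrane growth accompanies division. Cells with at least 1 UMI of 10 division genes (2578 cells) were set against those with 0 (1966 cells), summed per mouse. Deeper cells are more likely to show such a UMI: the median depth was 4146 to 6386 UMIs per cell in the first set and 2564 to 3968 in the second. Of 31 members tested, 11 passed, 4 higher and 7 lower in dividing cells, a smaller share than the background of 42.2% of 10875 genes (21.6% higher and 20.7% lower). The median of the members was -0.10 and that of all genes -0.03. Abca1 (-0.81, SE 0.11), Mylip (-0.42, SE 0.08) and Abcg1 (-0.28, SE 0.09) were lower, while the lipid carrier Apoe did not pass (-0.32, edgeR adjusted p 0.116). Of the 5 sensing genes, Srebf2 alone passed, as lower (-0.49, SE 0.07). Enzymes split. Fdps (0.42, SE 0.13), Acat2 (0.58, SE 0.18) and Ebp (0.33, SE 0.11) were higher, as was Stard4 (0.47, SE 0.16), while Msmo1 (-0.69, SE 0.17), Lss (-1.04, SE 0.32) and Mvd (-1.09, SE 0.38) were lower. With DESeq2, Abca1, Srebf2 and Mylip alone pass, and with a stricter gate 6 members do. Of 38 other pathway genes tested there, 5 were higher and 13 lower.

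**Figure D5:**
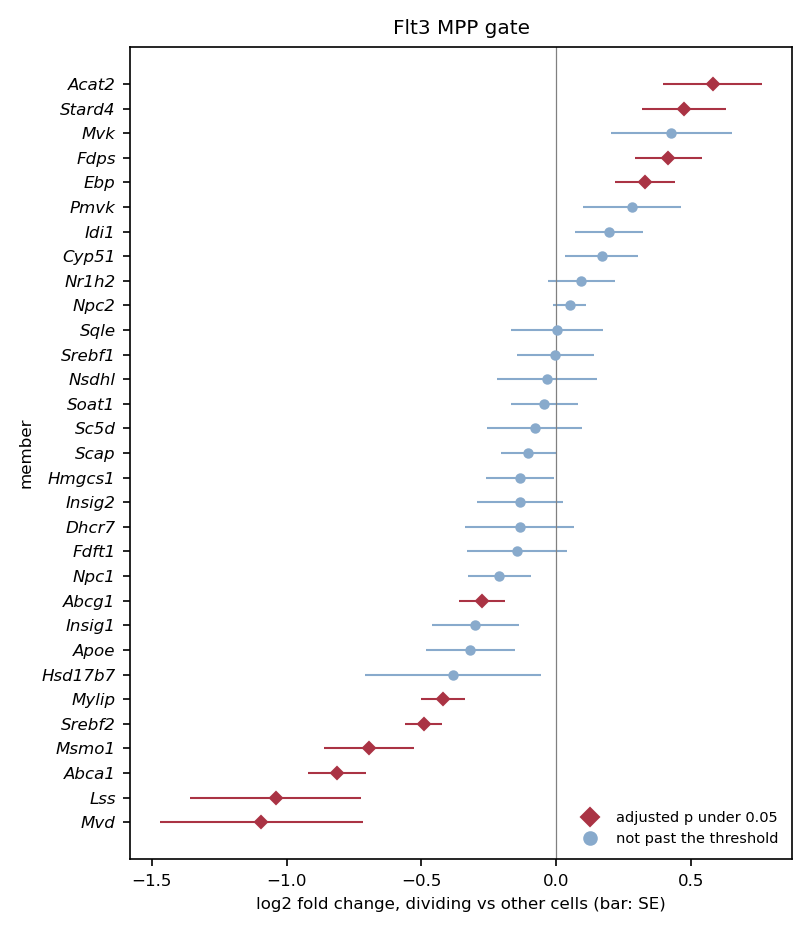
Log2 fold change with its SE (x axis) of 31 members (y axis) between Flt3 MPP cells with and without a UMI of 10 division genes; diamonds passed the adjusted threshold of 0.05. Abca1 (-0.81) and Srebf2 (-0.49) lie left of 0, and Acat2 (0.58) and Fdps (0.42) right.

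Beyond the members, 46 further genes of the pathway were listed in 7 groups, and 42 of them had enough UMIs for a test in at least 1 gate, in 349 pairs of gene and gate. By edgeR, 1 pair was higher and 0 lower in tamoxifen+rapamycin against tamoxifen, 1 higher and 0 lower in late rapamycin against tamoxifen, and 0 higher and 2 lower in tamoxifen+rapamycin against late rapamycin. Scd2, a fatty acid desaturase under SREBP, rose in the erythroid gate from 39.8 ± 1.13 CPM under tamoxifen (SD, n = 2) to 93.0 ± 20.9 under tamoxifen+rapamycin (1.19, edgeR adjusted p 0.0017) and 73.0 ± 6.86 under late rapamycin (0.86, adjusted p 0.0083). The second is lost without the tamoxifen mouse of day 1 (adjusted p 0.152). Fasn, fatty acid synthase, was lower in Gata2 precursors under tamoxifen+rapamycin (17.2 ± 1.75 CPM) than under late rapamycin (43.2 ± 8.61), with a difference of -1.31 (edgeR adjusted p 0.0279). The Fasn call is lost with DESeq2 (adjusted p 1.00), a stricter gate (0.120), no day in the fit (0.0742), either tamoxifen+rapamycin mouse left out (0.407 and 0.0809) or the late rapamycin mouse of day 1 left out (0.0757). Vldlr, a lipoprotein receptor that Mylip acts on, was lower in megakaryocytes under tamoxifen+rapamycin (9.77 ± 2.03 CPM) than under late rapamycin (48.1 ± 36.1), with a difference of -2.34 (edgeR adjusted p 0.0040) on 4 to 37 UMIs per mouse. The Vldlr call is lost without the tamoxifen+rapamycin mouse of day 1 (-0.94, adjusted p 0.913), without the late rapamycin mouse of day 1 (0.429) and with no day in the fit (0.0961).

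Between lineages, 48 of 378 tests of these genes were higher and 123 lower than in the HSC gate under both scalings, against 34 and 84 of 288 for the members. Over all genes in the 9 gates, 19.4% of tests were higher and 28.1% lower by the same rule. By group, the higher and lower counts were 8 and 29 of 81 for fatty acid synthesis, 8 and 22 of 54 for lipoprotein uptake and lysosomal release, and 12 and 25 of 72 for sterol transport and ester hydrolysis. They were 10 and 14 of 63 for other sterol and isoprenoid enzymes, 2 and 19 of 27 for oxysterol and steroid enzymes, 4 and 7 of 45 for SREBP processing, and 4 and 7 of 36 for other LXR-linked genes. Among fatty acid genes, Scd1 ran 69.4 ± 29.4 plain CPM (SD, n = 6) in B lineage cells against 1.11 ± 1.37 in HSCs (6.16, SE 0.39), and Elovl6 fell from 135 ± 13.9 in HSCs to 2.90 ± 1.71 in neutrophils (-4.18, SE 0.18). Fads2 fell from 40.4 ± 4.27 to 0.46 ± 0.38 there. Cyp7b1, which clears oxysterols, was 88.1 ± 11.3 CPM in HSCs and rested on 2 UMIs in all B lineage cells. Vldlr was 98.3 ± 74.9 CPM in HSCs and had 3 UMIs in all neutrophils. In monocytes Apoc2 reached 47.9 ± 27.8 CPM, with 2 UMIs in all HSCs. Lbr, the lamin B receptor with sterol reductase activity, was 336 ± 34.4 CPM in neutrophils against 117 ± 12.3 in HSCs (2.70 with TMM, 1.52 with plain totals). Nceh1, which frees stored cholesterol from its ester, was 174 ± 25.9 CPM in HSCs and 15 ± 3.63 in B lineage cells (-3.20, SE 0.12). Tmem97, a sterol-bound protein that acts on Npc1, was 105 ± 31.5 CPM in neutrophil progenitors against 18 ± 5.53 (2.89, SE 0.15).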

How the data were processed

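The deposited files hold UMI counts per gene and cell, made by the authors with Cell Ranger 7.0.0 per the submitters' processing notes (8.0.1 per the file headers) on mm10; whether intronic reads were counted is not given in the sources used here. Hashtag counts assigned cells to mice (quantile 0.999), and barcodes with several hashtags were dropped. Of 25058 and 21409 barcodes on the 2 days, 21814 and 18944 carried 1 hashtag. Cells with at least 500 genes, 1000 UMIs and at most 10% mitochondrial UMIs were kept, then 1504 and 1125 expected doublets within a mouse were removed, leaving 17762 and 16674. Gates were set by smoothed marker scores (15 neighbours, minimum 0.5, margin 0.1).

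UMIs were summed per mouse and gate (at least 50 cells in every mouse) and tested with edgeR 4.0.16 (TMM, filterByExpr, quasi-likelihood, Benjamini-Hochberg, threshold 0.05) in R 4.3.3. The treatment fit used all 6 mice with the processing day as a block and 2 residual degrees of freedom. The labels give the replicate number as the processing day, which pairs the mice. The lineage fit used 60 sums with the mouse as a block. DESeq2 1.42.0, RLE factors, plain totals, no filter, stricter gates and cell filters, kept doublets, no block and each mouse left out were alternatives. On simulated counts the treatment fit recovered 74% of 2-fold and 100% of 4-fold changes with 4 false calls among 10804 genes. The lineage fit recovered 100% of both, with 8 false calls among 11587. Only genes with many UMIs were changed, with a fixed spread and no effect of mouse or day. Treatment was simulated in the HSC gate, and lineage between the HSC and Flt3 MPP gates. Recovery of low-count members, or in gates that vary more between mice, was therefore not measured.

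The members and gene lists were chosen with earlier results of these data known. All members are accounted for; among other pathway genes, those named were the called ones by treatment and the largest per list by lineage. T and NK, eosinophil, macrophage and stromal cells were too few to test. With 2 mice a group, p-values measure only the spread between these mice.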

Additional observations from a re-analysis of the deposited data

Results flagged for a closer look

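Among 43 sets of 6 mice checked for a single mouse far from the others, 7 had one (chance gives about 1 in 20). Values are plain CPM. Pmvk in the erythroid gate was 28.1 in the late rapamycin mouse of day 1, below 37.4 to 42.5 in the others. Srebf1 in the erythroid gate was 47.5 in the tamoxifen+rapamycin mouse of day 1, above 34.2 to 37.3. Scap in the B lineage gate was 39.6 in that same mouse, below 48.6 to 52.9. In megakaryocytes the tamoxifen+rapamycin mouse of day 2 was high for Lss (19.7 against 5.51 to 9.75) and for Dhcr7 (39.3 against 9.75 to 20.2). The late rapamycin mouse of day 2 was high for Acat2 in basophils and mast cells (50.1 against 16.9 to 24.5) and for Npc1 in monocytes (50.4 against 33.5 to 39.6).

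The treatment difference of Idi1 differed between lineages: late rapamycin against tamoxifen was larger in the neutrophil gate than in the HSC gate by 1.97 on the log2 scale (SE 0.45, edgeR interaction adjusted p 0.0461). It was 1 of 864 such member tests to pass, beside 42 of 339471 over all genes, and 23 of the 12573 genes passed in this gate and comparison. The Idi1 neutrophil values were 9.88 and 11 CPM under tamoxifen and 56.8 and 18.5 CPM under late rapamycin. Without the late rapamycin mouse of day 1 the interaction is 0.88 (edgeR adjusted p 0.871), and without the other late rapamycin mouse it is 2.53 (adjusted p 4.2e-06, where 813 of 13042 genes pass). With any 1 of the other 4 mice left out it does not pass, at 1.37 to 2.58 and adjusted p-values from 0.175 to 0.760. These fits were added after seeing the data.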

How the results depend on the processing

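Counts of members that passed were small and moved with the settings. The share of all genes is not given beside them here, so they do not set the members apart from other genes. Over all gates, tamoxifen+rapamycin against tamoxifen had 1 pass, and 0 with DESeq2, a stricter gate or no replicate block, 9 with no low-count filter, and 0 to 13 with a mouse left out. Late rapamycin against tamoxifen had 1, and 0 with DESeq2 or no replicate block, 8 with no filter, and 1 to 34 with a mouse left out. Tamoxifen+rapamycin against late rapamycin had 1, and 0 with DESeq2 or no replicate block, 6 with no filter, and 0 to 26 with a mouse left out. In the HSC gate the 0 passes became 2, 1 and 1 with no filter in the same order, 1 for late rapamycin against tamoxifen with a stricter gate, and 0 to 2, 0 to 1 and 0 to 2 with a mouse left out. The 144 lineage passes ranged from 127 to 151 with a mouse left out. The 11 passes in dividing cells became 3 with DESeq2, 6 with a stricter gate and 8 to 11 with a mouse left out. With plain totals these gate differences changed sign: in erythroid cells Dhcr7 (-0.032) and Nsdhl (-0.039), and in neutrophils Insig2 (-0.52), Pmvk (-0.11), Nr1h2 (-0.14), Npc2 (-0.75), Idi1 (-0.67), Tm7sf2 (-0.21) and Nsdhl (-0.68). With plain totals and gates of at least 20 cells, an alternative chosen after seeing the data, they were -0.032, -0.039, -0.52, -0.10, -0.14, -0.74, -0.66, -0.20 and -0.68. In the HSC gate, late rapamycin against tamoxifen changed sign for Sqle without the tamoxifen mouse of day 2 (-0.098, the lowest with a mouse left out; the highest was 0.77) and for Acat2 with a stricter gate (-0.10). The cause was not tested. Depth limits the rarest gates and genes such as Mvd and Nr1h3.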
